A study of Homo sapiens with 12 samples.

Results

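The 6 genes described here encode the SMAD proteins that carry signals of the TGFβ family from the membrane to the nucleus: SMAD2 and SMAD3, SMAD1, SMAD5 and SMAD9, and SMAD4. They were chosen by name, as the receptor-activated SMADs together with the common partner SMAD4, and the inhibitory SMADs were left out. All 6 were among the 57773 genes of the deposited count table, and all 6 were among the 20571 with enough reads to be tested. RNA had been sequenced from MDA-MB-231, an established human cell line of triple-negative breast cancer, grown in DMEM with 10% FBS. The groups of 3 libraries were cells given TGFβ together with alisertib for 48 h (Combination), cells given TGFβ alone for 48 h, cells given alisertib alone for 48 h, and cells with no treatment. Alisertib blocks Aurora A, a kinase needed in mitosis. Neither doses nor the TGFβ isoform are given in the sources used here. The labels do not say whether replicate libraries were separate cultures, and the p-values therefore measure a spread between libraries that may be technical. All groups are the same unmodified line, and the untreated cells are not labelled as vehicle-treated.

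In the canonical pathway a TGFβ or activin receptor complex phosphorylates SMAD2 and SMAD3, whereas a bone morphogenetic protein (BMP) receptor complex phosphorylates SMAD1, SMAD5 and SMAD9. The phosphorylated SMADs join SMAD4, enter the nucleus and regulate target genes together with other transcription factors. Phosphorylation and movement into the nucleus are changes of the proteins, which transcript counts do not show. In many epithelial cells TGFβ halts proliferation, and in mesenchymal-like carcinoma cells such as MDA-MB-231 it is studied for its part in invasion.

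Every library with TGFβ had a higher total count than every library without it. Total counts ranged over 105921831 to 120619368 for Combination libraries, 110282980 to 118220032 for TGFβ libraries, 97048328 to 105563951 for alisertib libraries and 93701658 to 100328721 for untreated libraries. One library of each group, numbers 10, 6, 9 and 1, deviated along GC content. Its deviation from the group mean had a rank correlation with GC content of -0.787, -0.755, -0.725 and -0.726 across 11022 genes. The other 8 had 0.158 to 0.808, in part by construction, as deviations within a group balance out. Alisertib libraries 7, 8 and 9 had 0.689, 0.158 and -0.725, so libraries 7 and 9 lay on opposite sides of library 8. Values without these 4 libraries, or with a covariate that marks them (a fit added after the data were seen), stand beside the results they change. The 4 were picked from these data, so leaving them out or marking them can narrow the spread and make p-values too small. No 2 libraries of a group agreed within sampling noise. The label of a triple-negative, mesenchymal-like line matched its markers, with at most 0.0031 RPKM of the oestrogen receptor gene ESR1 and 0.00187 of the progesterone receptor gene PGR, against 246.5 to 429.6 RPKM of the intermediate filament gene VIM. ERBB2, the gene of the HER2 receptor, had 4.70 to 7.09 RPKM. Of 6 leukocyte markers 4 stayed under 1 RPKM in every library, and PTPRC, which defines leukocytes, reached at most 0.0211 RPKM. The leukocyte sum was 37.2 to 42.4 RPKM in Combination libraries, 32.9 to 36.9 in TGFβ libraries, 30.5 to 33.3 in alisertib libraries and 20.8 to 27.7 in untreated libraries, nearly all of it from the lysosomal gene CD68. Of 4 fibroblast markers 2 stayed under 1 RPKM, and the sum was 11.2 to 15.5 RPKM in Combination libraries, 15.7 to 18.6 in TGFβ libraries, 2.21 to 2.76 in alisertib libraries and 2.51 to 3.01 in untreated libraries, carried by the collagen gene COL1A1 and the receptor gene PDGFRB, while DCN, which defines fibroblasts, reached at most 0.0085 RPKM. The 3 endothelial markers found in the table stayed under 1 RPKM throughout. The summed luminal markers, mostly the keratin gene KRT8, overlapped between groups over 54.5 to 73.1 RPKM. The part of other cell types in the results was not tested.

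Levels are given as RPKM, reads per kilobase of gene length scaled to library depth. They were computed from the counts with TMM-scaled library sizes and the deposited gene lengths. The length column is headed coding length, and how it was derived is not stated in the sources used here. Levels of different genes, and orders, shares and ratios built on them, depend on these lengths, whereas the fold changes of a gene do not. In bulk RNA, fewer cells with a transcript and less of it per cell cannot be told apart. A gene is called where edgeR's quasi-likelihood test gave a Benjamini-Hochberg adjusted p under 0.05, taken over all tested genes, and fold changes are log2 values with their standard error (SE). The comparison of TGFβ with untreated cells and that of Combination with alisertib cells share no library. Their fold changes thus give the response to TGFβ without and with alisertib in separate libraries. Their p-values are not independent, as the spread was estimated over all 12 libraries in a single fit. The other comparisons share a group with each of these comparisons.

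The order of the 6 levels was the same in every group: SMAD3, SMAD5, SMAD2, SMAD4, SMAD1 and SMAD9, from the highest to the lowest. Neighbours in that order did not overlap between libraries of a group, with the exception of SMAD2 and SMAD4 in TGFβ cells, whose mean levels stood at a ratio of 1.05. The distance between the first and second changed most: the mean level of SMAD3 was 1.63 times that of SMAD5 in Combination cells and 1.51 times in TGFβ cells, against 2.98 times with alisertib and 2.73 times in untreated cells. SMAD1 and SMAD9 stayed under 1 RPKM in all 12 libraries. In untreated cells SMAD5 had 9629 to 10437 reads and SMAD2 had 10052 to 10838. Their order in level there rests on the deposited lengths of 8778 and 13770 bases.

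**Figure D1:**
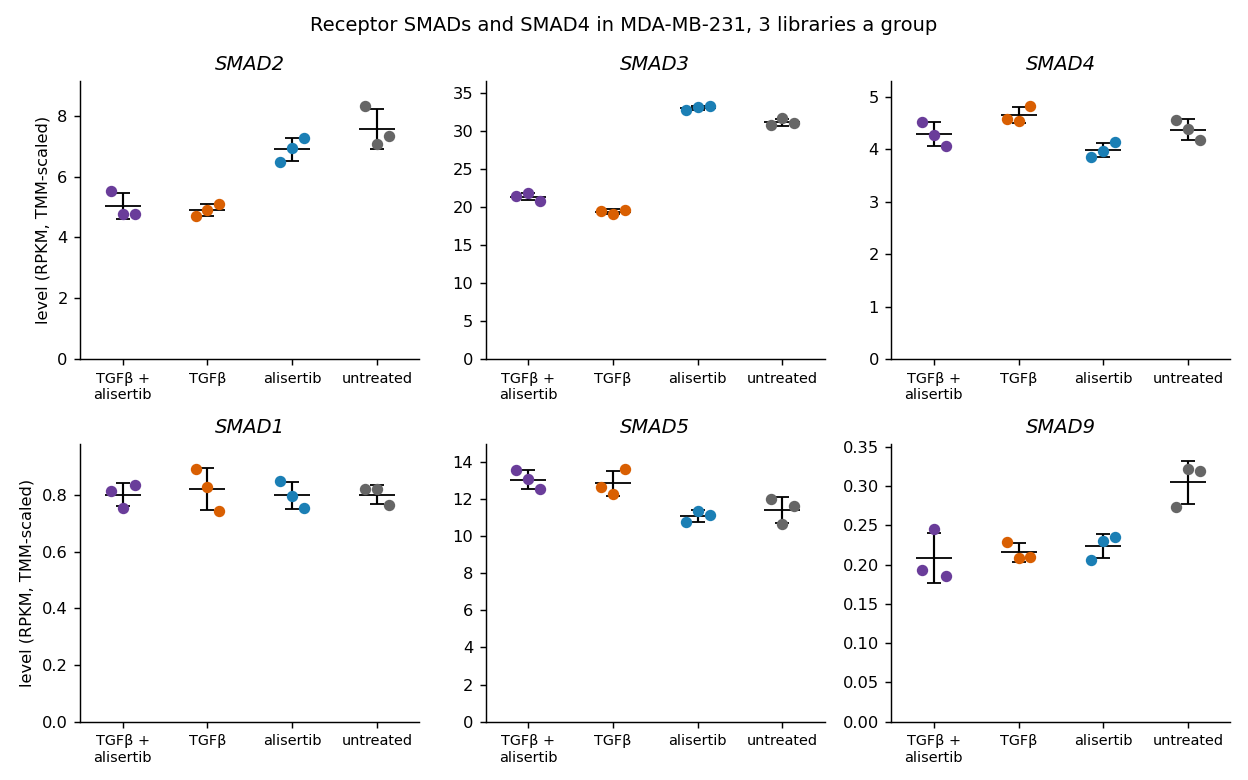
Level of each SMAD gene (y axis, RPKM from TMM-scaled counts) in the 3 libraries of each group (points), with the group mean and SD (bars). SMAD3 and SMAD2 lie lower in all 6 libraries that had TGFβ than in all 6 that had none, and SMAD5 lies higher at this scaling.

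SMAD2 and SMAD3, the receptor SMADs of the TGFβ and activin branch, both fell with TGFβ. Because these 2 moved together and SMAD5 moved the other way, the 250 bases before the transcription start are shown for these 3 genes, from RefSeq on GRCh38.p14 and read 5′ to 3′ on the gene's own strand as annotated there. That reading was checked against GENCODE v29 transcripts for 5 of the 6 SMADs and could not be for SMAD3, as no transcript covers the bases after that start. The window of SMAD2 is chr18:47930873-47931122 on the minus strand, that of SMAD3 is chr15:67065352-67065601 on the plus strand and that of SMAD5 is chr5:136132595-136132844 on the plus strand. Capitals mark GGCGC and its reverse complement GCGCC, a GC-rich sequence that SMAD proteins can bind.
SMAD2: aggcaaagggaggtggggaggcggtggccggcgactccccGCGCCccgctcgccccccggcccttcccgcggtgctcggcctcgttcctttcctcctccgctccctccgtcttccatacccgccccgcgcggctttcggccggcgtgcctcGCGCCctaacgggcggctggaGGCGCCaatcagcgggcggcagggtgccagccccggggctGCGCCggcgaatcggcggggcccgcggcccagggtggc
SMAD3: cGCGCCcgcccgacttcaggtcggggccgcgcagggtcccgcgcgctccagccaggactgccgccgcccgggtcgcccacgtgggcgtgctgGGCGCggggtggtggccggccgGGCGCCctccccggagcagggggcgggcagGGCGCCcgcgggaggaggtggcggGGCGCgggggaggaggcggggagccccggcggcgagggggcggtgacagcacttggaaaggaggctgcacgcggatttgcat
SMAD5: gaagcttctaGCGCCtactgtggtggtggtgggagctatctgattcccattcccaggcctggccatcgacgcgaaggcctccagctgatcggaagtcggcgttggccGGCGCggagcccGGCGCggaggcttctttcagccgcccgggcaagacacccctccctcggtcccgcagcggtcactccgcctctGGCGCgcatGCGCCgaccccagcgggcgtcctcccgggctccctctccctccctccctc
The 3 windows held 5, 7 and 5 such matches, some of them overlapping. Those of SMAD4, SMAD9 and SMAD1 held 3, 2 and 0. Neither CAGAC nor GTCTAGAC, searched on both strands as other sequences bound by SMADs, was found in any of the 6 windows. Among 35116 RefSeq windows of the same length, 44.5% held GGCGC, 38% held CAGAC and 0.182% held GTCTAGAC. These shares count windows with any match and were not matched for GC content. How many matches a window held was not compared with this background. The GC content was 78.4% for SMAD2, 80.8% for SMAD3 and 70.4% for SMAD5, against a median of 58% over all windows. SMAD1 and SMAD3 have 5 annotated RefSeq starts each and SMAD2 has 2, of which only the most upstream was read, so the count of 0 for SMAD1 covers 1 of its 5 starts. These matches describe letters of the genome, and no binding was measured.

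SMAD3 (ENSG00000166949, hg19 chr15:67356101-67487533) was the most abundant SMAD transcript, with 18541 to 32553 reads a library. Its level was 21.4, 21.8 and 20.8 RPKM in Combination cells, 19.4, 19.1 and 19.6 RPKM with TGFβ, 32.7, 33.1 and 33.2 RPKM with alisertib, and 30.7, 31.6 and 31.1 RPKM in untreated cells. The 4 groups did not overlap in any of the 5 pairwise comparisons. With TGFβ against untreated cells SMAD3 fell by 0.68 ± 0.04 on the log2 scale, to 0.622 times the level (adjusted p = 2.66e-09, 95% interval -0.77 to -0.60). With Combination against alisertib it fell by 0.63 ± 0.04 (adjusted p = 8.35e-09), and with Combination against untreated cells by 0.55 ± 0.04 (adjusted p = 3.19e-08).

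SMAD2 (ENSG00000175387, hg19 chr18:45357922-45457515) had 6926 to 10838 reads a library. Its level was 5.52, 4.78 and 4.78 RPKM in Combination cells, 4.72, 4.89 and 5.10 RPKM with TGFβ, 6.49, 6.94 and 7.26 RPKM with alisertib, and 8.31, 7.07 and 7.33 RPKM in untreated cells. Every library that had TGFβ lay below every library that had not. The fall was 0.63 ± 0.07 on the log2 scale with TGFβ against untreated cells (adjusted p = 7.19e-06, 95% interval -0.78 to -0.47), 0.46 ± 0.07 with Combination against alisertib (adjusted p = 0.000171) and 0.59 ± 0.07 with Combination against untreated cells (adjusted p = 1.26e-05). In every group the highest library was the one that deviated along GC content, numbers 10, 6, 9 and 1. A locus inside SMAD2, RP11-380M21.2, held 10963 to 13417 reads a library, more than SMAD2 itself, with a log2 fold change of -0.01 with TGFβ against untreated cells (adjusted p = 0.956). GENCODE v29 lists it as MTCO2P2, a processed pseudogene that touches no SMAD2 exon, and its reads were not added to those of SMAD2. Without the 4 libraries named above the log2 fold changes of SMAD2 were -0.58, -0.49 and -0.59 in the same 3 comparisons, all called.

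The summed level of SMAD2 and SMAD3 was 26.3 ± 0.70 RPKM in Combination cells, 24.3 ± 0.41 with TGFβ, 39.9 ± 0.65 with alisertib and 38.7 ± 0.31 in untreated cells (SD, n = 3 each). The ratio of SMAD3 to SMAD2 was 4.26 ± 0.34, 3.95 ± 0.14, 4.80 ± 0.24 and 4.13 ± 0.40 in the same order of groups (SD, n = 3 each), so the 2 transcripts kept nearly the same proportion to each other in TGFβ and in untreated cells while both were lower with TGFβ. Across the 12 libraries the log2 levels of SMAD2 and SMAD3 had a Pearson r of 0.92, a description over libraries that share their treatment groups.

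SMAD5, SMAD1 and SMAD9 are the receptor SMADs of the BMP branch, and they did not move as a group. SMAD5 (ENSG00000113658, hg19 chr5:135468534-135524435), whose promoter is shown above, held nearly all of the branch, with 9629 to 13658 reads a library. Its level was 13.6, 13.1 and 12.5 RPKM in Combination cells, 12.6, 12.3 and 13.6 RPKM with TGFβ, 10.7, 11.3 and 11.2 RPKM with alisertib, and 12.0, 10.6 and 11.6 RPKM in untreated cells. At these TMM-scaled levels the lowest library with TGFβ lay just above the highest without it. TMM factors were 0.959 to 0.980 in libraries with TGFβ and 1.01 to 1.05 in those without. Unscaled, TGFβ library 5 had 11509 SMAD5 reads of 111265852, a smaller fraction than the 9957 of 93701658 in untreated library 1. The separation thus rests on these factors. Libraries 10, 6 and 1, which deviated along GC content, were the highest for SMAD5 in their groups, and alisertib library 9 was not. SMAD5 rose by 0.17 ± 0.06 on the log2 scale with TGFβ against untreated cells, 1.13-fold (adjusted p = 0.0265, 95% interval 0.05 to 0.29), by 0.24 ± 0.06 with Combination against alisertib, 1.18-fold (adjusted p = 0.00413), and by 0.19 ± 0.06 with Combination against untreated cells, 1.14-fold (adjusted p = 0.0134). The call between Combination and alisertib held in all 20 other settings (0.18 to 0.25, adjusted p of at most 0.0457). That between TGFβ and untreated cells was lost in 5 of 20, with a log2 fold change of 0.13 without untreated library 2 (adjusted p = 0.103), 0.18 without TGFβ library 4 (adjusted p = 0.0506) and 0.13 without TGFβ library 6 (adjusted p = 0.113). The call between Combination and untreated cells was lost in 3 of 20, with 0.14 without untreated library 2 (adjusted p = 0.0775) and 0.16 without Combination library 10 (adjusted p = 0.0504).

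SMAD9 (ENSG00000120693, hg19 chr13:37418968-37494902), also called SMAD8, was the least abundant, with 115 to 190 reads a library. Its level was 0.194, 0.245 and 0.186 RPKM in Combination cells, 0.229, 0.208 and 0.209 RPKM with TGFβ, 0.206, 0.230 and 0.236 RPKM with alisertib, and 0.273, 0.322 and 0.319 RPKM in untreated cells. All 9 treated libraries lay below all 3 untreated ones, and the treated groups overlapped one another. SMAD9 fell by 0.50 ± 0.14 on the log2 scale with TGFβ (adjusted p = 0.0109, 95% interval -0.80 to -0.20) and by 0.55 ± 0.14 with Combination (adjusted p = 0.00592), each against untreated cells. With alisertib alone the log2 fold change was -0.45 ± 0.14 and missed the threshold (adjusted p = 0.0776, over the 20 other settings 0.0302 to 0.235). It passed without untreated library 1 (-0.52, adjusted p = 0.0392) and without the 4 libraries named above (-0.55, adjusted p = 0.0302). With the covariate that marks them it also passed (-0.44, adjusted p = 0.0378). With Combination against alisertib it was -0.11 ± 0.14 (adjusted p = 0.601).

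SMAD1 (ENSG00000170365, hg19 chr4:146402346-146479231), with 457 to 590 reads a library, showed no detectable difference. Its level was 0.814, 0.754 and 0.836 RPKM in Combination cells, 0.892, 0.828 and 0.744 RPKM with TGFβ, 0.848, 0.796 and 0.753 RPKM with alisertib, and 0.821, 0.821 and 0.763 RPKM in untreated cells. The groups overlapped in every comparison. The log2 fold change with TGFβ against untreated cells was 0.03 ± 0.09 (adjusted p = 0.803), with a 95% interval of -0.16 to 0.23 that still allows a difference of the size seen for SMAD5.

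SMAD4 (ENSG00000141646, hg19 chr18:48494410-48611415), the partner shared by both branches, passed the test in no comparison of the fit over all 12 libraries without a covariate or an offset. Its level was 4.53, 4.27 and 4.07 RPKM in Combination cells, 4.58, 4.54 and 4.82 RPKM with TGFβ, 3.86, 3.97 and 4.14 RPKM with alisertib, and 4.57, 4.39 and 4.18 RPKM in untreated cells. The highest library of each group was the one that deviated along GC content. Separation of 3 against 3 libraries was not counted over all tested genes, here or for the other SMADs. The 3 alisertib libraries lay below the 3 untreated ones, and the 3 Combination libraries lay below the 3 TGFβ ones. The log2 fold changes of these 2 comparisons were -0.13 ± 0.05 (adjusted p = 0.185) and -0.12 ± 0.05 (adjusted p = 0.397), and that of TGFβ against untreated cells was 0.09 ± 0.05 (adjusted p = 0.239). Without the 4 libraries that deviated along GC content the first was -0.12 and passed (adjusted p = 0.042). With the covariate that marks them it was -0.13 and passed (adjusted p = 0.0138), as did Combination against alisertib (0.10, adjusted p = 0.0249). The fold changes moved little in these fits, whose p-values can be too small, as stated above. When GC content and gene length entered as an offset, SMAD4 passed as higher with TGFβ against untreated cells (0.15, adjusted p = 0.00196) and with Combination against alisertib (0.12, adjusted p = 0.00979). The libraries do not mark strand, and a readthrough locus of 1734 to 2443 reads a library, RP11-729L2.2, overlaps SMAD4. Summing both, a setting added after the data were seen, gave no call either.

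Counted over the 6 genes, 4 were called with TGFβ against untreated cells, 3 lower and 1 higher, where 38.6% of all tested genes were called (18.5% higher, 20.1% lower). The same 4 were called with Combination against untreated cells, where 39.7% of all tested genes were called (19.4% higher, 20.3% lower), and 3 of them, without SMAD9, with Combination against alisertib, where the share was 38.4% (19.4% higher, 19% lower). The median log2 fold change of the 6 was -0.23, -0.29 and -0.05 in these comparisons, beside -0.01, 0.00 and 0.01 over all tested genes. With alisertib against untreated cells, where 6.74% of genes were called (24.5% without the 4 libraries that deviated along GC content), edgeR and DESeq2 called 0 of the 6, and 3 had an unadjusted p under 0.05 in edgeR, namely SMAD3, SMAD4 and SMAD9. SMAD3 had a log2 fold change of 0.09 ± 0.04 there (adjusted p = 0.227). With the covariate that marks the 4 libraries 3 of the 6 were called there, all lower: SMAD4 and SMAD9, as given above, and SMAD2 (-0.13, adjusted p = 0.0156). With Combination against TGFβ, where 2.08% of genes were called (6.92% without the 4 libraries), edgeR called 0 of the 6 and 1 had an unadjusted p under 0.05. That gene was SMAD3, with a log2 fold change of 0.14 ± 0.04 (adjusted p = 0.0851, over the 20 other settings 0.00233 to 0.30), and DESeq2 called it (adjusted p = 0.0477). It also passed without the 4 libraries that deviated along GC content (0.15, adjusted p = 0.00989), with the covariate that marks them (0.14, adjusted p = 0.00489) and without untreated library 1 (0.14, adjusted p = 0.0303).

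**Figure D2:**
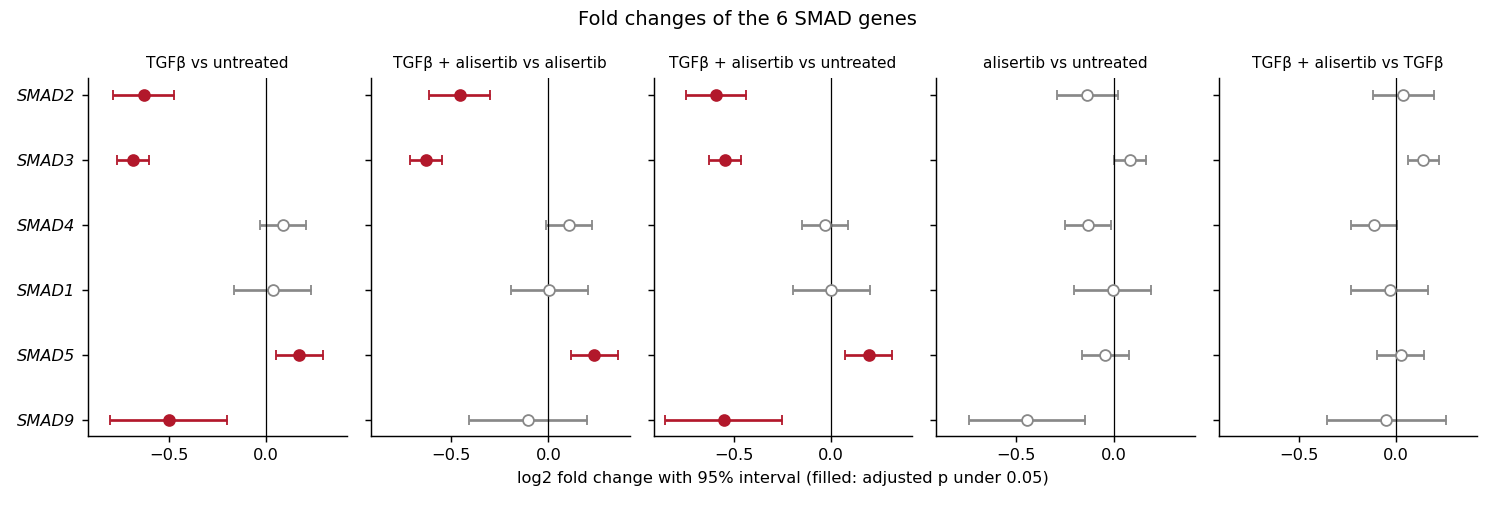
Log2 fold change of each SMAD gene (x axis) with its 95% interval in the 5 pairwise comparisons. Filled red points passed an adjusted p under 0.05. SMAD2 and SMAD3 lie left of 0 and SMAD5 right of it in the 3 panels in which TGFβ was added, and no point is filled in the 2 panels in which alisertib alone was added.

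Whether the response to alisertib differed with TGFβ present was tested as an interaction. Of all tested genes 0.282% were called, 58 in number, against 744 without the 4 libraries that deviated along GC content, 382 with the covariate that marks them, 318 with the GC and length offset, 179 with DESeq2 and 19 to 166 when any single library was left out. Over the 6 SMADs, edgeR and DESeq2 called 0, with 0 at an unadjusted p under 0.05 in edgeR. The interaction was largest for SMAD9, at 0.39 ± 0.20 on the log2 scale (adjusted p = 0.944, 95% interval -0.03 to 0.82), and for SMAD2, at 0.17 ± 0.10 (95% interval -0.05 to 0.39). For SMAD3 it was 0.05 ± 0.05, with an interval of -0.06 to 0.17. The log2 fold changes of SMAD9 with TGFβ, -0.11 in the presence of alisertib and -0.50 in its absence, are thus not shown to differ.

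The make-up of the SMAD transcript pool differed with these changes. SMAD3 made up 47.7% of the summed RPKM of the 6 genes in Combination cells and 45.2% with TGFβ, against 59.0% with alisertib and 56.0% in untreated cells. SMAD5 made up 29.2% and 30.0% in the 2 groups with TGFβ, against 19.8% with alisertib and 20.5% without treatment. The ratio of the TGFβ branch to the BMP branch, SMAD2 and SMAD3 over SMAD1, SMAD5 and SMAD9, was 1.88 in Combination cells, 1.75 with TGFβ, 3.30 with alisertib and 3.10 in untreated cells. These shares and ratios are descriptions of transcripts, computed per library and averaged, and have no test of their own. SMAD7, an inhibitory SMAD outside the 6 genes, had 13.4 and 13.9 RPKM in Combination and TGFβ cells against 3.20 RPKM with alisertib and 2.94 RPKM in untreated cells. SMAD3 stood at 1.59 and 1.39 times SMAD7 with TGFβ present, and at 10.3 and 10.6 times without it. The second inhibitory SMAD, SMAD6, had 0.502, 0.501, 0.437 and 0.554 RPKM in Combination, TGFβ, alisertib and untreated cells and was not called with TGFβ (adjusted p = 0.457).

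**Figure D3:**
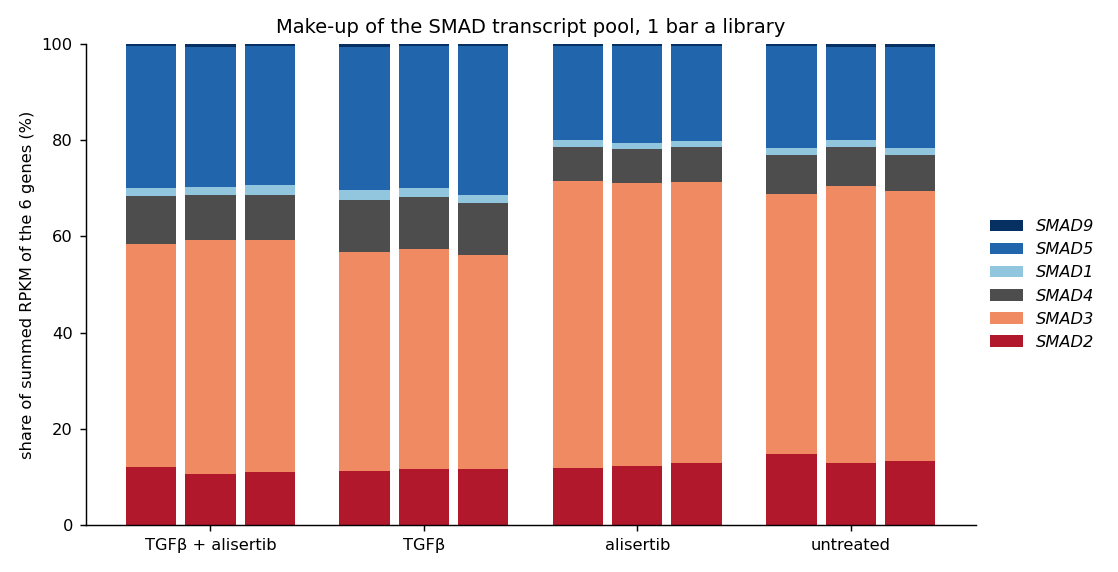
Share of each gene in the summed RPKM of the 6 SMAD genes (y axis, percent), 1 bar for each of the 12 libraries, by group. SMAD3 takes 45.2% to 47.7% on average in the 2 groups with TGFβ and 56.0% to 59.0% in the 2 groups without, and SMAD1 and SMAD9 are barely visible.

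Genes that act on the SMAD proteins went both ways with TGFβ. Of the receptors that phosphorylate SMADs and their partners, 11 of 14 were tested, of which 3 rose and 2 fell with TGFβ against untreated cells, where 18.5% of all tested genes were higher and 20.1% lower, the background also for the lists that follow. TGFBR3, a co-receptor that presents TGFβ ligands, fell by 1.67 ± 0.08 on the log2 scale, to 1.47 RPKM in TGFβ cells against 4.69 RPKM in untreated cells. TGFBR2, the type II receptor that binds TGFβ, rose by 0.46 ± 0.04, with 55.0 RPKM in TGFβ cells against 40.0 RPKM in untreated cells. ACVR1, a type I receptor that activates BMP SMADs, rose by 0.59 ± 0.08, and BMPR2, a type II BMP receptor, by 0.51 ± 0.06. TGFBR1, the type I receptor that phosphorylates SMAD2 and SMAD3, had 16.6 RPKM with TGFβ and 17.7 RPKM in untreated cells and was not called (adjusted p = 0.273).

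Of 11 tested ubiquitin ligases and deubiquitinases of SMADs, 2 rose and 4 fell with TGFβ, against 18.5% higher and 20.1% lower over all tested genes. NEDD4L, a ligase that recognises phosphorylated SMAD2 and SMAD3, fell by 1.48 ± 0.05 on the log2 scale, with 4.41 RPKM in TGFβ cells against 12.3 RPKM in untreated cells. SMURF2 and SMURF1, ligases that target SMADs and, with SMAD7, the receptors, rose by 1.17 ± 0.06 and 0.97 ± 0.04. SMURF2 stood at 99.0 RPKM with TGFβ and 43.9 RPKM without treatment. NEDD4L was one of the few genes of these lists called in both alisertib comparisons, higher by 0.37 ± 0.05 with alisertib against untreated cells (adjusted p = 0.000549) and by 0.31 ± 0.05 with Combination against TGFβ (adjusted p = 0.00585), and both calls held in all 20 other settings. SMURF2 rose by 0.31 ± 0.06 with alisertib against untreated cells (adjusted p = 0.00626).

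Of 9 phosphatases and linker kinases, 4 rose and 1 fell with TGFβ, beside the same 18.5% higher and 20.1% lower over all tested genes. CTDSPL, a phosphatase of the SCP family, members of which act on the SMAD linker, fell by 1.07 ± 0.05, and the kinases CDK8 and CDK9, which phosphorylate the linker of active SMADs, rose by 0.39 ± 0.08 and 0.35 ± 0.08. CTDSPL was also lower with alisertib against untreated cells, by 0.32 ± 0.05 (adjusted p = 0.00103). CTDSP2, of the same family, rose by 0.18 ± 0.04 with TGFβ (0.11 with the GC and length offset) and was lower by 0.21 ± 0.04 with alisertib (adjusted p = 0.00472), a call lost when only the libraries compared entered the fit (adjusted p = 0.075). The phosphatase PPM1A, reported to act on SMAD2 and SMAD3, was not called with TGFβ, with a log2 fold change of 0.02 ± 0.07. Of 10 anchors and nuclear transport factors, 2 rose and 3 fell with TGFβ, a called share near the 38.6% of all tested genes. ZFYVE9, also called SARA, which brings SMAD2 and SMAD3 to the receptor, fell by 0.24 ± 0.06, and the nuclear exporter XPO1 fell by 0.27 ± 0.06. HGS, an endosomal protein, rose by 0.49 ± 0.12, a call lost without the filter on low counts (adjusted p = 0.0545). Under the GC and length offset HGS had a log2 fold change of 0.19 (adjusted p = 0.00125).

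Among nuclear partners of SMADs, 15 of 17 were tested, and 5 rose and 4 fell with TGFβ, against 18.5% higher and 20.1% lower over all tested genes. SKIL, which encodes the corepressor SnoN, rose by 1.96 ± 0.07, with 17.1 RPKM in TGFβ cells and 4.41 RPKM in untreated cells. ATF3, a transcription factor that partners SMAD3, fell by 0.99 ± 0.08, with 0.974 RPKM in TGFβ cells and 1.94 RPKM in untreated cells. MECOM, whose products include the corepressor EVI1, fell by 0.73 ± 0.07. ATF3 was higher by 0.39 ± 0.08 with alisertib against untreated cells (adjusted p = 0.01) and by 0.44 ± 0.08 with Combination against TGFβ (adjusted p = 0.0147), the second of which was lost in 5 of 20 other settings, among them without TGFβ library 4 or 5 or Combination library 10 or 12 (adjusted p of up to 0.0893). With alisertib against untreated cells the calls over these 5 lists were 3 higher and 7 lower among 56 tested genes, against 3.55% higher and 3.19% lower over all tested genes. ZFYVE16, which encodes endofin, an anchor related to SARA, was among the lower ones, a call lost in 12 of 20 other settings, 9 of which left out a single library (adjusted p of up to 0.173). TGFBR3 was another, lost in 7 of 20, among them without untreated library 2 or 3 or without any of the 3 alisertib libraries (adjusted p of up to 0.107). The lower calls of SP1 and GTF2I were each lost in 4 of 20 (adjusted p of up to 0.106 and 0.13), and that of ACVR2B in 2. Of the 7 lower calls only that of CTDSPL held in every setting. The 3 higher calls, NEDD4L, SMURF2 and ATF3, held in all 20. With Combination against TGFβ the calls over the 5 lists were 3 higher, NEDD4L, ATF3 and TGFBR2, and 1 lower, CTDSP2, among the same 56, against 1.19% higher and 0.89% lower over all tested genes. Those of TGFBR2 (0.16 ± 0.04) and CTDSP2 (-0.16 ± 0.04) were lost in 15 and 14 of 20 other settings, with adjusted p of up to 0.243 and 0.168, most of them without a single library.

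**Figure D4:**
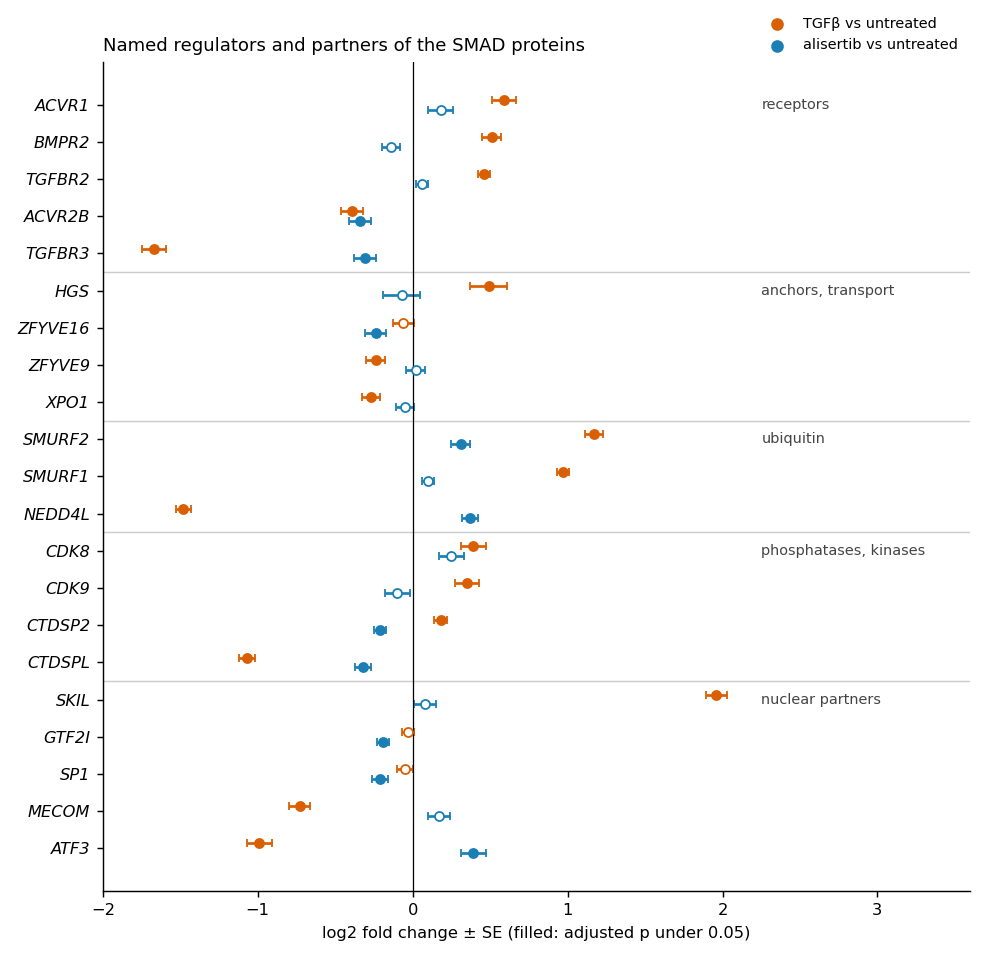
Log2 fold change ± SE (x axis) of the named receptors, anchors and transport factors, ubiquitin ligases, phosphatases and kinases, and nuclear partners, with TGFβ (orange) and with alisertib (blue), each against untreated cells. Filled points passed an adjusted p under 0.05. NEDD4L and ATF3 are called lower with TGFβ and higher with alisertib, and SKIL and SMURF2 are the highest with TGFβ.

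The targets of the 2 branches differed in their counts. Both target lists were chosen with earlier results of these data known. The counts that follow describe these lists and do not test SMAD activity. Of 19 tested TGFβ SMAD targets (20 listed), 18 rose and 0 fell with TGFβ against untreated cells, where 18.5% of all tested genes were higher and 20.1% lower, with a median log2 fold change of 2.24. COL1A1, the collagen gene, rose by 4.57 ± 0.19 on the log2 scale, with 9.69 RPKM in TGFβ cells against 0.409 RPKM in untreated cells. JUNB, which encodes an AP-1 transcription factor, rose to 18.1 RPKM in TGFβ cells against 1.13 RPKM in untreated cells. CTGF was the tested target that did not pass, with 42.8 RPKM in TGFβ cells and 40.5 RPKM in untreated cells (adjusted p = 0.196). The 18 targets were higher in the libraries in which the transcripts of SMAD2 and SMAD3 were lower. A relation between the 2 was not tested.

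Of 10 tested BMP SMAD targets (15 listed), 3 rose and 5 fell with TGFβ, against 18.5% higher and 20.1% lower over all tested genes, with a median log2 fold change of -0.57. ID1, ID2 and ID3, which encode inhibitors of basic helix-loop-helix factors, fell by 1.94 ± 0.12, 1.33 ± 0.11 and 1.54 ± 0.16. The transcription factor gene ATOH8 fell by 2.96 ± 0.25, with 0.107 RPKM in TGFβ cells and 0.838 RPKM in untreated cells. The 3 that rose were SMAD7, which is on both target lists, NOG and BAMBI, each an inhibitor of TGFβ family signalling. At TMM-scaled levels SMAD5 was 1.13-fold higher with TGFβ, a call lost in 5 of 20 other settings. A relation between SMAD5 and these targets was not tested.

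With alisertib against untreated cells, 4 TGFβ targets rose and 0 fell, against 3.55% of all tested genes higher and 3.19% lower. KLF10, a TGFβ-induced transcription factor, rose by 0.44 ± 0.05, and its call held in all 20 other settings. The transcription factor gene BHLHE40 and the matrix protein gene TGFBI rose by 0.21 ± 0.05 and 0.16 ± 0.04, calls lost in 5 of 20 settings (each alisertib library and untreated library 2 among them, adjusted p of up to 0.108) and in 11 of 20 (10 of which left out a single library, adjusted p of up to 0.166). Of the BMP targets 3 fell and 0 rose with alisertib: ID2 by 0.78 ± 0.11 (adjusted p = 0.000577), ID3 by 0.61 ± 0.16 (adjusted p = 0.0344) and ID1 by 0.57 ± 0.11 (adjusted p = 0.00821). The ID2 call held in all 20 other settings, whereas that of ID3 was lost in 7, among them without untreated library 2 or 3, TGFβ library 4, alisertib library 8 or 9 or Combination library 12 (adjusted p of up to 0.173), and that of ID1 was lost without untreated library 3 (adjusted p = 0.0585). With Combination against TGFβ, 3 TGFβ targets fell and 0 rose, against 1.19% of all tested genes higher and 0.89% lower. They were THBS1, by 0.32 ± 0.04 (adjusted p = 0.00116), TGFBI, by 0.24 ± 0.04 (adjusted p = 0.0124), and CTGF, which encodes a matrix-associated growth factor, by 0.19 ± 0.05 (adjusted p = 0.0481). The THBS1 call held in all 20 other settings, that of TGFBI was lost without TGFβ library 4 or 5 or Combination library 10 or 11 (adjusted p of up to 0.071), and that of CTGF in 10 of 20, 7 of which left out a single library (adjusted p of up to 0.174). THBS1 encodes the secreted glycoprotein thrombospondin 1.

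The genes whose log2 levels over the 12 libraries were most like each SMAD were sought among the 10768 or 10769 genes that averaged 5 CPM or more. For SMAD3 they included NR2F2 and PAG1, with Pearson r of 0.998 and 0.996. For SMAD2 they were ZNF507, ARHGEF12 and NUCB2, with r of 0.994, 0.994 and 0.993. For SMAD5 they were SLC30A7, FAM102B and LINC00657, with r of 0.981, 0.977 and 0.967, and for SMAD4 they were FIGNL1, RBM5 and TRA2A, with r of 0.94, 0.936 and 0.923. SMAD9 was most like PLEKHH1, at r = 0.95, and SMAD1 most like TRIB3, at only 0.734. SMAD3 and SMAD5 had r = -0.848. These values describe 12 libraries that share their treatment groups and the GC deviation, and carry no test.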

How the data were processed

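Per the labels' protocols, total RNA from a miRNeasy kit went into TruSeq RNA v2 libraries. That kit does not mark strand, so reads of overlapping or antisense genes cannot be told apart. The submitters' processing notes name the build hg19 and the tools featureCounts, Subread, TopHat and bcl2fastq, with no versions or settings. The authors deposited raw counts of reads for each gene, not normalised, and beside them their own RPKM values, which were not used. RPKM values in the text were recomputed from the deposited counts.

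Counts of 20571 genes kept by filterByExpr were fitted with edgeR 4.0.16 in R 4.3.3 (TMM scaling, robust quasi-likelihood fit, 12 libraries, 8 residual degrees of freedom) and adjusted by the Benjamini-Hochberg method. SE values are the fold change divided by the root of its F value. Intervals of 95% are per gene and unadjusted. Simulated counts with known changes were used to test the procedure. They were drawn independently for each gene and library, without the GC deviation, and their outcome is not given here. The alternatives were DESeq2 1.42.0, other scalings (DESeq2 size factors, upper quartile), no low-count filter, only the groups compared, each library left out, 4 libraries left out, an offset for GC content and length (GC content known for 19649 tested genes), and, added after the data were seen, a covariate marking those 4 libraries and the sum of SMAD4 and its readthrough locus.

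The members, lists, tests and alternatives were chosen with earlier results of these data known. Genes were named by a rule: the 6 SMADs, and per list up to 3 called genes with the largest change with TGFβ and up to 3 in the comparisons of alisertib with untreated cells or of Combination with TGFβ. SMAD6, TGFBR1, PPM1A, NOG, BAMBI, BHLHE40, TGFBI and CTGF lie outside it and were named after their values were seen. Some genes within the rule are not reported here. CPM, counts scaled to library depth, served the comparison of gene patterns, with a prior count of 2. GRCh38.p14 coordinates apply to the promoters and hg19 coordinates to the genes.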

Additional observations from a re-analysis of the deposited data

Results flagged for a closer look

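Of the genes on the SMAD lists, TGFBI and KLF10, both TGFβ targets, responded differently to alisertib with and without TGFβ, by the test of the difference itself (edgeR interaction term, Benjamini-Hochberg adjustment over all tested genes). For TGFBI the interaction was -0.40 ± 0.06 on the log2 scale (adjusted p = 0.0157), with mean levels of 332 RPKM in Combination cells and 392 RPKM with TGFβ, and 49.6 RPKM with alisertib against 44.3 RPKM in untreated cells. For KLF10 it was -0.36 ± 0.07 (adjusted p = 0.0408), with 31.8 RPKM in Combination cells and 30.2 RPKM with TGFβ, and 16.6 RPKM with alisertib against 12.3 RPKM in untreated cells. The TGFBI call was lost in 6 of 19 other settings, each without a single library (TGFβ 4 or 5, any of the alisertib libraries, or Combination 11, adjusted p of up to 0.0729). The KLF10 call was lost in 10 of 19, each without a single library, any but untreated 1 and 3 (adjusted p of up to 0.146).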

How the results depend on the processing

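The lower levels of SMAD2, SMAD3 and SMAD9 with TGFβ and with Combination, each against untreated cells, of SMAD2 and SMAD3 with Combination against alisertib, and the higher SMAD5 in that last comparison were called in all 20 alternatives. Without the 4 libraries that deviated along GC content, 5073 genes were called with alisertib against untreated cells, 1434 with Combination against TGFβ and 744 in the interaction, against 1387, 428 and 58 with all 12. With the GC and length offset these counts were 3412, 1572 and 318, and with a covariate that marks the 4 libraries, added after the data were seen, 4057, 1820 and 382. DESeq2 called 692 with Combination against TGFβ and 179 in the interaction, no low-count filter gave 105 in the interaction, and only the groups compared gave 623 with alisertib. Leaving out single libraries gave 718 to 2598, 153 to 754 and 19 to 166. The counts in the other 3 comparisons stayed within 1.5 times under every alternative. The cause was not tested.

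With the GC and length offset SMAD4 passed with TGFβ against untreated cells (0.15) and with Combination against alisertib (0.12), SMAD3 passed with alisertib against untreated cells (0.12, adjusted p = 0.0107) and with Combination against TGFβ (0.16), and the sign turned for SMAD1 (0.02) and SMAD5 (0.00) with alisertib, SMAD4 with Combination against untreated cells (0.03) and SMAD4 in the interaction (-0.03). Without the 4 libraries SMAD3 passed with Combination against TGFβ (0.15), SMAD4 (-0.12) and SMAD9 (-0.55) passed with alisertib, and the sign turned for SMAD1 with alisertib (0.06) and with Combination against alisertib (-0.05), SMAD2 with Combination against TGFβ (-0.01) and SMAD4 in the interaction (-0.01, also -0.01 when summed with its readthrough locus). With upper-quartile factors SMAD5 missed the threshold with TGFβ (0.13, adjusted p = 0.15) and with Combination (0.16, adjusted p = 0.0727), each against untreated cells, and SMAD1 turned sign in 4 comparisons (-0.01 with TGFβ, 0.02 with alisertib and -0.04 with Combination, each against untreated cells, and -0.06 with Combination against alisertib). With only the groups compared SMAD5 missed it with TGFβ (0.17, adjusted p = 0.0732), and SMAD1 turned sign with alisertib (0.00) and Combination (-0.01). SMAD1 also turned sign with DESeq2 or its size factors with alisertib (0.01 each), and without the low-count filter with Combination against untreated cells and against alisertib (0.00 each). DESeq2 called SMAD3 with Combination against TGFβ (0.14), as did the fit with the covariate (0.14), which also called SMAD2 (-0.13), SMAD4 (-0.13) and SMAD9 (-0.44) with alisertib against untreated cells and SMAD4 with Combination against alisertib (0.10).

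Leaving out single libraries moved the log2 fold change of SMAD1 over -0.03 to 0.10 with TGFβ, -0.05 to 0.04 with alisertib, -0.04 to 0.04 with Combination against untreated cells, -0.10 to 0.03 with Combination against TGFβ, -0.05 to 0.05 with Combination against alisertib and -0.10 to 0.03 in the interaction. It moved SMAD5 over 0.13 to 0.21 with TGFβ, 0.14 to 0.23 with Combination against untreated cells and -0.01 to 0.07 with Combination against TGFβ. It moved SMAD4 over -0.07 to 0.00 with Combination against untreated cells and -0.02 to 0.04 in the interaction, SMAD9 over -0.52 to -0.39 with alisertib and -0.18 to 0.01 with Combination against TGFβ, and in that comparison SMAD2 over -0.04 to 0.07 and SMAD3 over 0.12 to 0.15. No paired analysis was possible because the replicate numbers run from 1 to 12 and are not shared between groups, and the covariate marks a GC deviation seen in the data, not a pairing in the labels. Scaling without TMM factors moved RPKM levels to 0.964 to 1.04 times, beyond 1 SD for 7 of 24 group means. It lowered levels in the groups with TGFβ and raised them in those without. With 115 to 190 reads a library, SMAD9 is the member whose differences counting error limits most.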
